A study of Mus musculus with 6 samples.

Results

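The kidney RNA of diabetic mice was read for 10 genes of cell junctions, the claudins Cldn1, Cldn2, Cldn3, Cldn4, Cldn5, Cldn7 and Cldn8 and the cadherins Cdh1, Cdh2 and Cdh16. They were picked by symbol from the gene table as junction genes known from parts of the kidney other than the thick ascending limb, and all 10 were found among its 17684 genes. Claudins are the membrane proteins of tight junctions, and the set a cell makes decides which ions and how much water pass between neighbouring cells. Cadherins hold neighbouring cells together at adherens junctions through calcium-dependent binding, and catenins tie them to the cytoskeleton. Each nephron segment is known for its own claudins. Cldn1 belongs to the parietal epithelium of the glomerular capsule, Cldn2 to the leaky proximal tubule, Cldn3, Cldn4, Cldn7 and Cldn8 to the tight distal nephron and collecting duct, and Cldn5 to endothelium. Among the cadherins, N-cadherin (Cdh2) is known from the proximal tubule, E-cadherin (Cdh1) from more distal tubules, and kidney-specific cadherin (Cdh16) from the basolateral membrane of tubules along the nephron. Cldn3, Cdh1 and Cdh16 are also known from the thick ascending limb, so their reads cannot all be placed outside it.

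Whole kidneys of 6 mice with the db/db genotype, which lack a working leptin receptor and become obese and diabetic, gave 1 library each. The strain is given as C57 BLKS/L, and every mouse was 50 weeks old. The 3 mice of the Db group received saline, and the 3 of the Db+Ato10 group received atorvastatin, a statin that blocks cholesterol synthesis, at 10 mg/kg, given into the stomach by gavage on a run of days in each week, for 40 weeks. A further label names atorvastatin for all 6 mice, and the groups follow the treatment label that separates saline from drug. Mice were lost over the study, and few treated for this long were still alive, so the libraries of both groups come from survivors. Estimated reads summed to between 11381678 and 14667909 per library, and 3 counts correspond to between 0.198 and 0.26 CPM (reads of a gene scaled to a common library size, after TMM, a normalization for library composition).

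Individual libraries stood apart from the rest of their group. On the first principal component of log2 CPM over all tested genes, Db+Ato10 replicates 1 and 2 lay far to one side at 107.01 and 46.12, while Db+Ato10 replicate 3 at -18.81 lay closest to Db replicate 2 at -26.86. The study describes male mice, but Db replicate 1 held 2 counts over 4 Y-linked genes against at least 1419 in each other library. The number of the 10 genes called is therefore also given without Db replicate 1 (DESeq2) and without Db+Ato10 replicate 3 (edgeR), and DESeq2 calls of other junction genes are also given without Db replicate 1.

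Claudins of the distal nephron and collecting duct parted in direction between the groups. Cldn3 and Cldn4 stood nearly 4 times higher in the Db+Ato10 group (folds of 3.72 and 3.82), Cldn7 stood 1.92-fold higher, and Cldn8 stood 1.88-fold lower. Cdh16 was 1.61-fold lower, while Cdh1 differed by 1.09-fold. In 5 of the 10 genes the groups did not overlap, with 3 higher (Cldn3, Cldn4, Cldn7) and 2 lower (Cldn8, Cdh16) in every Db+Ato10 library than in any Db library; the same held for 23.2% of the 13679 tested genes, 12.0% higher and 11.3% lower.

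None of these differences passed the main test. A gene was called when edgeR's quasi-likelihood test gave a Benjamini-Hochberg adjusted p-value under 0.05 over all tested genes together with a fold change over 1.5. By that rule 0 of the 10 genes and 0% of all tested genes were called, and the smallest adjusted p-value from edgeR, 0.239, was shared by Cldn3, Cldn4, Cldn7 and Cldn8. Unadjusted p-values were under 0.05 for 6 of the 10 (Cldn1, Cldn3, Cldn4, Cldn7, Cldn8 and Cdh16), beside 16.9% of all tested genes. DESeq2 on the same counts called 4 of the 10 (Cldn3, Cldn4, Cldn8 and Cdh16), beside 6.48% of the genes it tested. Without Db replicate 1, DESeq2 called Cldn4 and Cldn8 only, beside 1.46% of the genes it tested then. In counts simulated at the observed means and dispersions, edgeR found 65 of 99 genes set to a 4-fold and 3 of 98 set to a 2-fold difference, with 4 false among 72 calls, while DESeq2 found 87 and 23 of them, with 46 false among 156 calls. In these simulated counts DESeq2 made a larger share of false calls than edgeR. There edgeR missed most 2-fold differences, which are near the size of those of Cldn7 and Cldn8. The simulation drew each gene separately and gave no library a shift of its own. Its rates therefore cannot be read as rates for the DESeq2 calls of Cldn3, Cldn4, Cldn8 and Cdh16. Those calls remain in doubt, as edgeR did not share them. With edgeR and without Db+Ato10 replicate 3, Cldn1, Cldn3, Cldn4 and Cldn7 were called, beside 9.04% of all tested genes. In whole-tissue RNA, fewer cells of a type and less RNA per cell cannot be told apart.

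**Figure D1:**
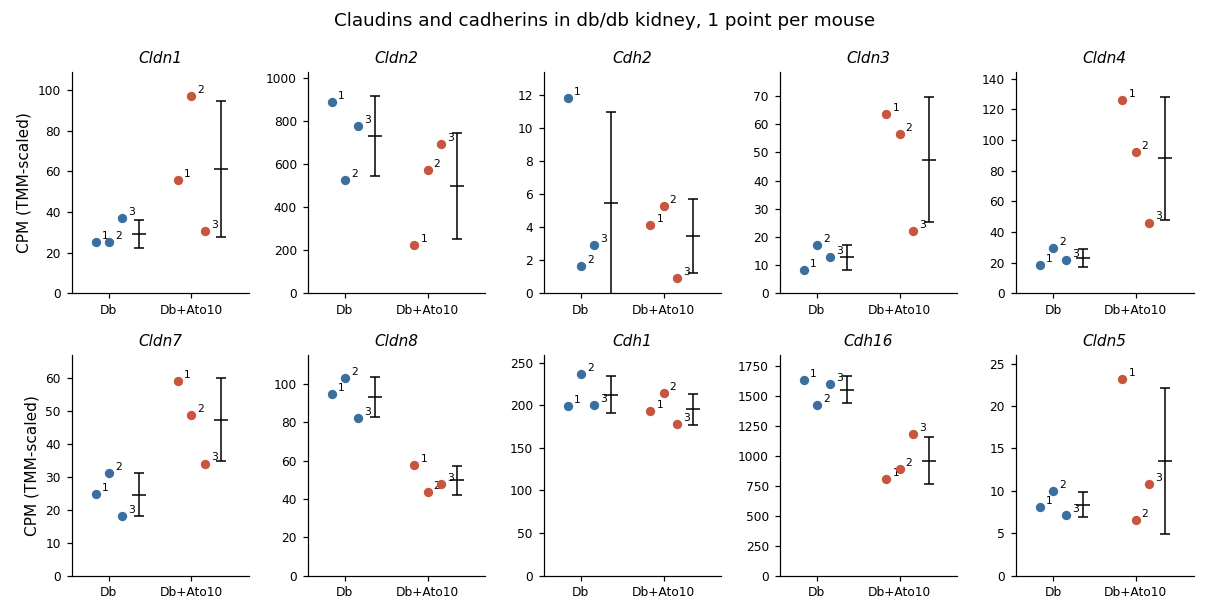
TMM-scaled CPM (linear axes from 0) of the 10 genes in each library; numbers beside the points are replicate numbers, and bars are the mean and SD of 3 libraries, with the lower bar of Cdh2 in the Db group ending at 0 because its SD exceeds its mean. Cldn3, Cldn4 and Cldn7 lie higher and Cldn8 and Cdh16 lie lower in every Db+Ato10 library, and Db+Ato10 replicate 3 is the lowest of its group for Cldn3 (22.1 CPM) and Cldn4 (46.2 CPM).

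Cldn4 (NCBI Gene 12740), which in the collecting duct joins with Cldn8 in a paracellular path for chloride, gave 18.2, 29.3 and 21.7 CPM in Db replicates 1 to 3. In Db+Ato10 replicates 1 to 3 it gave 126, 92 and 46.2 CPM. The highest Db library thus lay below the lowest Db+Ato10 library, and the treated libraries were spread far wider than the untreated ones. The group means were 23.1 ± 5.67 CPM (SD, n = 3) and 88.1 ± 40.1 CPM (SD, n = 3). The log2 fold change was 1.93 with a standard error of 0.39 (adjusted p = 0.239 with edgeR and 0.00054 with DESeq2). It stayed between 1.59 and 2.25 when each library was left out in turn.

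Cldn3 (12739), a sealing claudin, followed the same order of libraries within the Db+Ato10 group. It gave 8.26, 17.2 and 12.8 CPM in Db replicates 1 to 3 and 63.7, 56.4 and 22.1 CPM in Db+Ato10 replicates 1 to 3. The groups lay apart, although Db+Ato10 replicate 3 exceeded Db replicate 2 by only a few CPM. Its log2 fold change of 1.9 had a standard error of 0.45 (adjusted p = 0.239 with edgeR and 0.00396 with DESeq2). DESeq2 did not call Cldn3 without Db replicate 1, without Db replicate 3 or without Db+Ato10 replicate 2.

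Cldn7 (53624), known from the basolateral side of distal tubule and collecting duct cells as well as from their tight junctions, gave 24.7, 31 and 18 CPM in Db replicates 1 to 3. In Db+Ato10 replicates 1 to 3 it gave 59.1, 48.8 and 34 CPM. The groups did not overlap, but the gap between Db replicate 2 and Db+Ato10 replicate 3 was smaller than the spread within either group. For Cldn7 the log2 fold change was 0.94 with a standard error of 0.28, and DESeq2 missed its threshold narrowly (adjusted p = 0.239 with edgeR and 0.0508 with DESeq2).

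Cldn8 (54420), which recruits Cldn4 to the tight junction of collecting duct cells, ran the other way with little spread. Db replicates 1 to 3 gave 94.7, 103 and 82.2 CPM, and Db+Ato10 replicates 1 to 3 gave 58, 43.5 and 47.9 CPM. Here Db+Ato10 replicate 3, which lay nearest the Db libraries for Cldn3, Cldn4 and Cldn7, stood among the other treated libraries. The means were 93.4 ± 10.6 CPM (SD, n = 3) and 49.8 ± 7.46 CPM (SD, n = 3). The log2 fold change was -0.91 with a standard error of 0.16 (adjusted p = 0.239 with edgeR and 0.00109 with DESeq2). It ranged from -1.03 to -0.81 with a library left out, and DESeq2 called Cldn8 in each of those 6 fits, as it did Cldn4.

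With these opposite differences the makeup of the distal claudins was unlike in the 2 groups. Expressed as TPM (scaled for gene length and to the same sum in each library, so that genes can be set side by side), Cldn8 made up 51.9%, 43.9% and 48.1% of the summed Cldn3, Cldn4, Cldn7 and Cldn8 RNA in Db replicates 1 to 3. Its share was 12.5%, 11.7% and 22% in Db+Ato10 replicates 1 to 3. Cldn8 was the most abundant of the 4 in each Db library, and the least abundant in Db+Ato10 replicates 1 and 2. In Db+Ato10 replicate 3 its 34.2 TPM lay just above the 31.4 TPM of Cldn3. The share of Cldn4 was 13.3%, 16.5% and 16.9% in the Db libraries and 36.1%, 33% and 28.2% in the Db+Ato10 libraries. Cldn7 held a similar share in both groups, 23.7 ± 3.12% and 26.3 ± 2.99% (SD, n = 3 each). The summed level of the 4 genes was 139, 179 and 130 TPM in the Db libraries and 315, 280 and 156 TPM in the Db+Ato10 libraries, so the groups overlapped for the sum and not for the shares of Cldn3, Cldn4 and Cldn8.

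**Figure D2:**
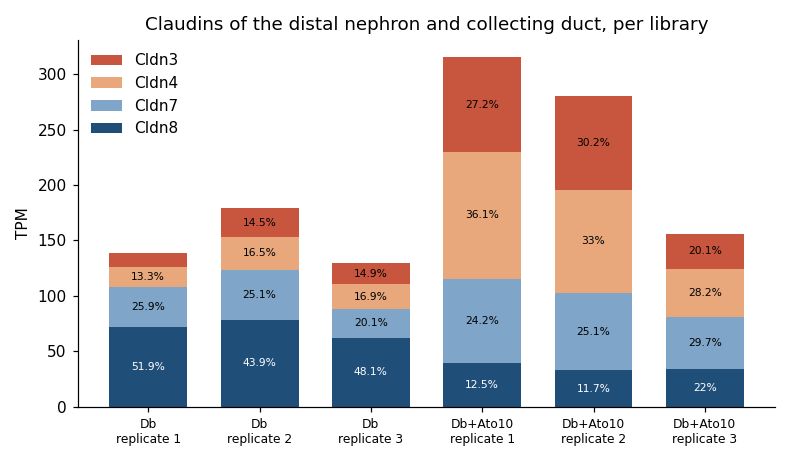
TPM of Cldn3, Cldn4, Cldn7 and Cldn8 stacked for each library, with each gene's percentage of the stack printed in its block where the block is tall enough. The Cldn8 block holds between 43.9% and 51.9% of the stack in the Db libraries and between 11.7% and 22% in the Db+Ato10 libraries.

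Ratios between genes of the same library do not depend on scaling between libraries. In TPM, the log2 ratio of Cldn4 to Cldn8 was -1.97, -1.41 and -1.51 in Db replicates 1 to 3 and 1.53, 1.49 and 0.36 in Db+Ato10 replicates 1 to 3. By TPM Cldn8 was thus ahead in every Db library and Cldn4 in every Db+Ato10 library, but in Db+Ato10 replicate 3 this order rests on the scaling for length, since by counts Cldn8 (608) was just ahead of Cldn4 (587) there. The groups differed by 2.76 (two-sided exact permutation p = 0.1, Benjamini-Hochberg adjusted p over the 5 ratios = 0.25). An exact p of 0.1 is the smallest that 3 libraries against 3 can give. For Cldn8 to Cldn3 the log2 ratios were 2.52, 1.6 and 1.69 in the Db libraries and -1.12, -1.37 and 0.13 in the Db+Ato10 libraries, a difference of -2.73 (exact permutation p = 0.1, adjusted 0.25). Cldn3 and Cldn4 were higher and Cldn8 was lower in every Db+Ato10 library, so both ratios had to part the groups. Their permutation p-values thus add nothing to the values of the single genes.

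Markers of the cells that carry these claudins were read beside them. All 9 principal cell genes had a log2 fold change below 0, with a median of -0.68, and in 6 of the 9 the groups did not overlap, beside 11.3% of all tested genes that were lower without overlap. Their summed level was 1325, 1207 and 1524 CPM in the Db libraries and 1111, 677 and 1042 CPM in the Db+Ato10 libraries. Aqp2, the vasopressin-regulated water channel and the most abundant of them by TPM, overlapped between the groups with a log2 fold change of -0.35. All 8 intercalated cell genes had one below 0 too, with a median of -0.39, 4 of them without overlap, and Atp6v0d2 (-0.07) and Aqp6 (-0.09) were nearly level. These summed to 550, 447 and 432 CPM and to 344, 253 and 326 CPM. The proton pump subunit gene Atp6v1b1 (log2 fold change -1.14) had the highest mean TPM of them in the Db libraries, at 112. Among the Db+Ato10 libraries Aqp6 had the highest, at 57.6 against 47.7 for Atp6v1b1. The 6 genes of the distal convoluted tubule had a median of -1.04 and all 6 lay lower without overlap. They summed to 4110, 4577 and 3114 CPM and to 2181, 1311 and 2104 CPM, with the calcium-binding protein gene Calb1 the most abundant by TPM, and Slc12a3 by CPM. edgeR called 0 genes of these 3 lists, and DESeq2 called 2 of the 9, 2 of the 8 and 3 of the 6, all lower as Cldn8 was, beside 6.48% of all genes in either direction. With a library left out DESeq2 called from 0 to 4 principal cell genes, 2 intercalated cell genes in each fit and from 1 to 4 genes of the distal convoluted tubule. These fits called from 1.46% to 19.8% of all genes they tested, and the counts of 4 came from the fit with 19.8%. No gene of these lists was at 0 in any library, and the part of such shifts in the levels of Cldn3, Cldn4, Cldn7 and Cldn8 was not tested.

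Cdh1 (12550), whose protein E-cadherin is the main adherens junction cadherin of distal tubules, was nearly level. It gave 199, 237 and 200 CPM in Db replicates 1 to 3 and 193, 214 and 178 CPM in Db+Ato10 replicates 1 to 3. The ranges overlapped widely, with a log2 fold change of -0.12 and a standard error of 0.15 (edgeR adjusted p = 0.678). It ranged from -0.18 to -0.03 with a library left out.

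Cdh16 (12556), the kidney-specific cadherin of the basolateral membrane, was by TPM the most abundant of the 10 genes in both groups. It gave 1630, 1422 and 1600 CPM in Db replicates 1 to 3 and 811, 888 and 1183 CPM in Db+Ato10 replicates 1 to 3. Every treated library lay below every untreated one, and Db+Ato10 replicate 3 was the closest to the Db group. Its log2 fold change of -0.69 had a standard error of 0.24 (adjusted p = 0.254 with edgeR and 0.026 with DESeq2). With a library other than Db+Ato10 replicate 3 left out, DESeq2 no longer called Cdh16. Ordered from lowest to highest Cldn4, the libraries ran Db replicate 1, 3 and 2 and then Db+Ato10 replicate 3, 2 and 1. From highest to lowest Cdh16 the order was the same. The libraries also had this order on the first principal component over all tested genes, which held 71.1% of the variance. The order is therefore not particular to Cldn4 and Cdh16. The log2 ratio of Cdh16 to Cdh1 was 3.63, 3.18 and 3.6 in the Db libraries and 2.66, 2.65 and 3.33 in the Db+Ato10 libraries, which overlap (difference -0.59, exact permutation p = 0.2, adjusted 0.333).

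The thick ascending limb, which also carries Cldn3, Cdh1 and Cdh16, had markers with a median log2 fold change of -1.21. edgeR called 0 of these 6 genes. DESeq2 called 5 of them, all lower, beside 6.48% of all genes in either direction, and from 2 to 5 with a library left out. The fits with a library left out called from 1.46% to 19.8% of all genes they tested. In 5 of the 6 the groups did not overlap, beside 11.3% of all tested genes, the exception being uromodulin (Umod), the most abundant by TPM, with 3264, 4311 and 3577 CPM in the Db libraries and 3104, 1234 and 3746 CPM in the Db+Ato10 libraries (log2 fold change -0.46). The 6 summed to 8763, 9552 and 8950 CPM in the Db libraries and to 4791, 2259 and 6263 CPM in the Db+Ato10 libraries, with none at 0. Db+Ato10 replicate 2 held the lowest sum, whereas the lowest Cdh16 was found in Db+Ato10 replicate 1. For the proximal tubule, the largest compartment of the organ, the 10 markers summed to 14507, 11154 and 14755 CPM and to 2244, 8200 and 14443 CPM, so that Db+Ato10 replicate 1 was far below the others and Db+Ato10 replicate 3 was level with the Db group. All 10 had a log2 fold change below 0 with the 6 libraries, with a median of -0.74 that became -0.32 on leaving out Db+Ato10 replicate 1 and -1.38 on leaving out the third. Slc22a6, Slc13a3 and Slc27a2 turned positive in at least 1 fit with a library left out, and in 1 of the 10, the glucose carrier Slc5a2, the groups did not overlap. By TPM the phosphate carrier Slc34a1 was the most abundant in the Db group and Slc27a2 in the Db+Ato10 group, and none was at 0. What part these shifts have in the level of Cdh16 was not tested.

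Cldn2 (12738), the cation and water pore of the proximal tubule, was the second most abundant of the 10 genes by TPM in both groups. It gave 888, 524 and 776 CPM in Db replicates 1 to 3 and 223, 574 and 694 CPM in Db+Ato10 replicates 1 to 3. Only Db+Ato10 replicate 1 lay below the Db range, and this was also the library in which the proximal tubule markers were lowest. Its log2 fold change was -0.55 with a standard error of 0.44 (edgeR adjusted p = 0.512), and lay between -0.87 and -0.2 with a library left out. The share of the proximal tubule markers in this difference was not tested.

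Cdh2 (12558), the N-cadherin gene, was the scarcest of the 10 and rested on few reads. It gave 11.8, 1.65 and 2.91 CPM in Db replicates 1 to 3, from 149, 19 and 36 counts. In Db+Ato10 replicates 1 to 3 it gave 4.15, 5.27 and 0.945 CPM, from 63, 78 and 12 counts. Db replicate 1 alone made the Db mean the higher one, since the log2 fold change was -0.66 with it and 0.61 without it (edgeR adjusted p = 0.692 and 0.753). The log2 ratio of Cdh1 to Cdh2 was 4.2, 7.3 and 6.23 in the Db libraries and 5.67, 5.5 and 7.67 in the Db+Ato10 libraries. The difference of 0.37 (exact permutation p = 0.9, also after adjustment) became -0.48 when Db replicate 1 was left out and -0.33 when Db+Ato10 replicate 3 was, so no direction can be given for an exchange between these cadherins.

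Cldn1 (12737), the claudin of the parietal cells that line the glomerular capsule, was high in part of the Db+Ato10 group. It gave 25.2, 25.1 and 37.2 CPM in Db replicates 1 to 3 and 55.9, 97.1 and 30.7 CPM in Db+Ato10 replicates 1 to 3. Db+Ato10 replicates 1 and 2 exceeded every Db library and Db+Ato10 replicate 3 lay within the Db range. For Cldn1 the log2 fold change was 1.07 with a standard error of 0.42 (adjusted p = 0.28 with edgeR and 0.14 with DESeq2). Without Db+Ato10 replicate 3 it was 1.4 and called by edgeR (adjusted p = 0.045), and without Db+Ato10 replicate 2 it was 0.58. The log2 ratio of Cldn1 to Cldn2 was -5.3, -4.59 and -4.59 in the Db libraries and -2.31, -2.75 and -4.71 in the Db+Ato10 libraries (difference 1.57, exact permutation p = 0.3, adjusted 0.375).

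The list of parietal cell markers, which holds Cldn1 itself, was also read. Its 6 genes summed to 287, 246 and 264 CPM in the Db libraries and to 477, 544 and 287 CPM in the Db+Ato10 libraries, and all 6 had a log2 fold change above 0 with a median of 0.72. Unadjusted edgeR p-values were under 0.05 for 3 of the 6, beside 16.9% of all tested genes. They were Cldn1, the adhesion molecule gene Ncam1 and the scaffold gene Akap12. In 0 of the 6 did the groups stand apart, beside 23.2% of all tested genes. DESeq2 called 1 of the 6, Akap12 (adjusted p = 0.0172), beside 6.48% of all genes it tested. With a library left out DESeq2 called 3 of the 6 without Db+Ato10 replicate 3 and 0 in each other fit. The fit without Db+Ato10 replicate 3 called 19.8% of all genes it tested. Akap12 gave 28, 24.2 and 20.4 CPM in the Db libraries and 113, 162 and 24.7 CPM in the Db+Ato10 libraries. Like Cldn1 it was highest in Db+Ato10 replicate 2, whereas Ncam1, Scin and Wt1 were highest in replicate 1 and Pax8 in replicate 3. Pax8, the most abundant of the list by TPM, is expressed along the tubule as well, and no gene of the list was at 0. Podocyte markers from the same glomeruli had 8 of 8 genes tested with a median of 0.08 (between -0.56 and 0.27 with a library left out), summed to 646, 455 and 455 CPM and to 770, 267 and 449 CPM, and were led by Podxl in TPM. The part of a shift in parietal cells in the level of Cldn1 was not tested.

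Cldn5 (12741), which seals the junctions of endothelial cells, gave 8.11, 9.97 and 7.11 CPM in Db replicates 1 to 3. In Db+Ato10 replicates 1 to 3 it gave 23.2, 6.55 and 10.8 CPM. Db+Ato10 replicate 1 alone was high and replicate 2 was the lowest of all 6 libraries. The log2 fold change of 0.69 had a standard error of 0.46 (edgeR adjusted p = 0.451) and was 0.05 without Db+Ato10 replicate 1. The 10 endothelial markers also had their lowest sum in Db+Ato10 replicate 2, with 644, 583 and 644 CPM in the Db libraries and 668, 288 and 633 CPM in the Db+Ato10 libraries. Their median log2 fold change was -0.29, but it became 0.03 on leaving out Db+Ato10 replicate 2 and -0.52 on leaving out the first, so 1 library decided its direction. In 2 of the 10 (the receptor genes Kdr and Tek) the groups did not overlap, near the 23.2% of all tested genes, Plvap was the most abundant by TPM and none was at 0. Their part in the level of Cldn5 was not tested.

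By TPM, the order of the 10 genes in the Db group was Cdh16 (916 ± 65.4, SD, n = 3), Cldn2 (450 ± 108), Cdh1 (82.8 ± 8.68), Cldn8 (71 ± 8.14), Cldn7 (35.6 ± 9.43), Cldn4 (23.3 ± 5.75), Cldn3 (19.2 ± 6.71), Cldn1 (15.8 ± 3.74), Cldn5 (11.1 ± 1.93) and Cdh2 (1.95 ± 1.98). Ranges of neighbours overlapped between Cdh1 and Cldn8 and from Cldn7 down to Cldn1, and were apart elsewhere. In the Db+Ato10 group the order was Cdh16 (536 ± 115, SD, n = 3), Cldn2 (299 ± 146), Cldn4 (83.3 ± 35.8), Cdh1 (72.1 ± 9.65), Cldn3 (67.2 ± 31.1), Cldn7 (64.2 ± 15.8), Cldn8 (35.5 ± 3.45), Cldn1 (31.7 ± 18.8), Cldn5 (16.5 ± 9.76) and Cdh2 (1.16 ± 0.774). Ranges of neighbours overlapped from Cldn4 down to Cldn7 and from Cldn8 down to Cldn5. Cldn8 thus held the first place among the distal claudins by mean TPM in the Db group and the last in the Db+Ato10 group, while Cdh16 and Cldn2 led and Cldn5 and Cdh2 closed the order in both.

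The transcript table held 16 transcripts of the 10 genes, of which 14 were tested. For 7 genes a single transcript was listed, so the gene and the transcript are the same measurement. edgeR called 0 of the 14 (0% of the 30175 transcripts tested), with 8 at an unadjusted p-value under 0.05. Those 8 belong to the same 6 genes that had unadjusted p-values under 0.05, so they largely repeat the gene-level result. The share of all transcripts under 0.05 was not counted, so the 8 cannot be set against it. DESeq2 called 4 (2.96% of the transcripts it tested), those of Cldn3, Cldn4 and Cldn8 and the main transcript of Cdh16. Cdh16 had 4 transcripts. The main one, NM_007663.3, held 85.1% of the reads of the gene, with 1385, 1224 and 1338 CPM in the Db libraries and 701, 783 and 1006 CPM in the Db+Ato10 libraries. The next 2 by reads had log2 fold changes of -0.92 and -0.45, and the scarcest, with 0.612% of the reads, had 0.42. Of the 3 transcripts of Cldn2, the main one had 90% of the reads and a log2 fold change of -0.58, and the second, with 9.95%, had -0.09 (edgeR adjusted p = 0.801 and 0.948). The second transcript gave 55.1, 56.7 and 76.4 CPM in the Db libraries and 46.7, 52 and 77.9 CPM in the Db+Ato10 libraries, so the low level in Db+Ato10 replicate 1 was seen mainly in the main transcript.

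Some of the 10 genes lie beside relatives in the RefSeq gene order of GRCm38.p6. This build was used only for names, neighbours and promoter sequences, because the processing notes of the deposited values name mm9. Cldn3 and Cldn4 are next to each other among protein-coding genes, and both were higher in every Db+Ato10 library. The other neighbour of Cldn3, Abhd11, had a log2 fold change of 0.16, and the other neighbour of Cldn4, Mettl27, had -0.53 (edgeR adjusted p = 0.554 and 0.352). Cldn1 is next to Cldn16, a claudin of the thick ascending limb that gave 12.8, 13.3 and 14.3 CPM in the Db libraries and 16.8, 12.8 and 7.96 CPM in the Db+Ato10 libraries. Cdh1 is next to Cdh3, the P-cadherin gene, which gave 9.38, 18.8 and 9.85 CPM in the Db libraries and 33.1, 36.1 and 16.6 CPM in the Db+Ato10 libraries, with a log2 fold change of 1.17 (edgeR adjusted p = 0.243). Cdh1 itself was level in these libraries. Cldn17, the neighbour of Cldn8, was at or near 0 in every library.

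The promoter sequences of Cldn3, Cldn4 and Cldn7 are shown because these genes were higher together. RefSeq promoter entries of GRCm38.p6 were at hand for 6 of the 10 genes, Cldn1, Cldn2, Cldn3, Cldn4, Cldn5 and Cldn7, the last with 2 starts. The 250 bases before each start were searched on both strands for the E-box CACCTG, the element that repressors of the Snail and Zeb families are known to bind. It was present before the start of Cldn4, beginning 14 bases before it, and before the second start of Cldn7, 97 bases before it and, on the other strand, 57 bases before it, and in 17.2% of all 32851 promoter entries. It was not in the windows of Cldn1, Cldn2, Cldn3 and Cldn5 or of the first start of Cldn7. The 120 bases before the start of Cldn4 (chr5:134946935-134947054, minus strand), Cldn3 (chr5:134986094-134986213, plus strand) and the second start of Cldn7 (chr11:69965301-69965420, plus strand) are given from 5′ to 3′, in this order.
Cldn4: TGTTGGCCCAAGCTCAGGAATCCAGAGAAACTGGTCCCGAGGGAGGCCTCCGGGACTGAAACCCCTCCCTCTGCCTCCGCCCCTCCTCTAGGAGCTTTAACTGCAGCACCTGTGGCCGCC
Cldn3: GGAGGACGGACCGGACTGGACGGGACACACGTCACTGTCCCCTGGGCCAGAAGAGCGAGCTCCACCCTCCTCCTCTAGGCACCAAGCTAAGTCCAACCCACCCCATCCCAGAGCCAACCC
Cldn7: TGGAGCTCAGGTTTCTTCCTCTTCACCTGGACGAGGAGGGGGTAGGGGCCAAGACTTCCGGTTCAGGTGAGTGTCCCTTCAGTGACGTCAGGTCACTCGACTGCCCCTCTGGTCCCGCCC

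The genes most like 4 of the 10 across libraries were read off as those with the largest Pearson correlation of log2 CPM over the 6 libraries, among genes with a mean of at least 5 CPM. For Cldn1 they were Fbxw4 (0.992), Mark2 (0.989) and L3mbtl3 (0.985), and for Cldn2 they were Dcun1d4 (0.997), Ugp2 (0.996) and Map3k15 (0.996). For Cldn8 they were Ppp1r13b (0.992), the secreted Wnt antagonist gene Sfrp1 (0.989) and the basolateral potassium channel gene Kcnj10 (0.987), and for Cdh1 they were Trove2 (0.985), Pura (0.973) and Mphosph8 (0.963). With 6 libraries in 2 groups such values describe these libraries only.

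Beyond the 10 genes, 126 others from 11 lists of junction and related genes were in the table, and 112 of them were tested. Their median log2 fold change was 0.03, beside -0.01 for all tested genes. For the 10 it was 0.28, but it became -0.03 on leaving out Db+Ato10 replicate 1 and 0.65 when Db replicate 1 was left out. The groups did not overlap for 24 of the 112, 11 higher and 13 lower, which is 21.4% beside 23.2% of all tested genes. edgeR called 0, with 27 at an unadjusted p-value under 0.05, which is 24.1% beside 16.9% of all tested genes. DESeq2 called 14, 9 higher and 5 lower, which is 12.5% beside 6.48% of all genes it tested. Leaving out Db replicates 1, 2 or 3 made the DESeq2 count 2, 10 or 3, and leaving out Db+Ato10 replicates 1, 2 or 3 made it 8, 9 or 39. The same fits called 195, 621 and 224 and 356, 445 and 2711 of all genes, so the fits rank in the same order by junction genes and by all genes called. Of the 14, only Cldn10 and Mmp9 were still called without Db replicate 1.

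**Figure D3:**
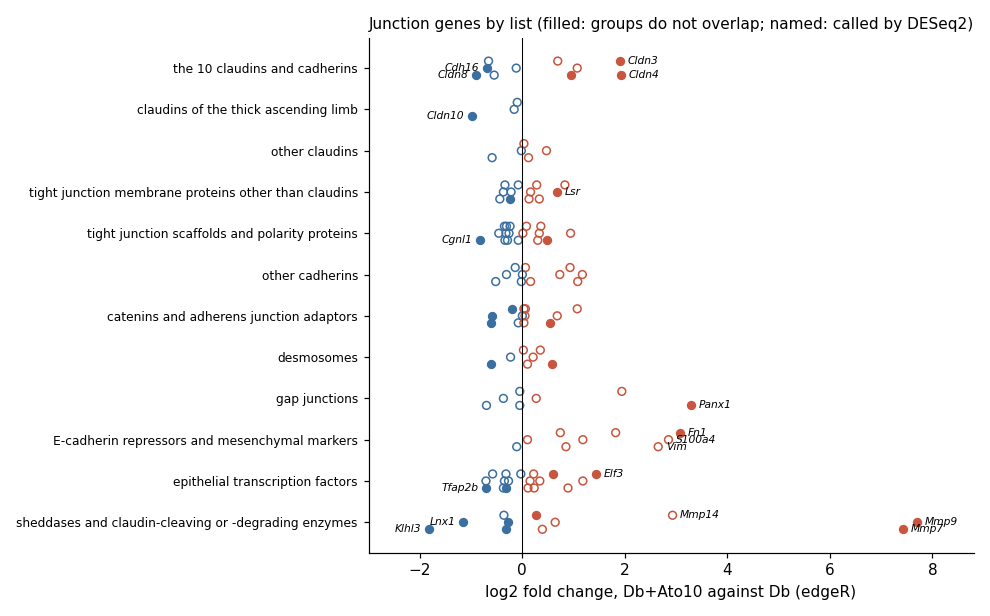
Log2 fold changes of tested genes (edgeR, Db+Ato10 against Db), 1 point per gene, in the 10 claudins and cadherins and in 11 junction lists; filled points are genes whose groups do not overlap, and named points were called by DESeq2. Most lists scatter around 0, Cldn3 and Cldn4 stand at 1.9 and 1.93, and the points farthest right are Mmp7 and Mmp9.

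Among other claudins, Cldn10, the cation pore of the thick ascending limb that also has a proximal tubule form, resembled Cldn8. It gave 185, 191 and 247 CPM in the Db libraries and 105, 86.2 and 125 CPM in the Db+Ato10 libraries. The groups did not overlap, and the log2 fold change was -0.98 (adjusted p = 0.239 with edgeR, 0.00274 with DESeq2 0.0287 with DESeq2 without Db replicate 1 and 0.0667 without Db replicate 3, where the call was lost). The other tested claudins of that segment, Cldn16 and Cldn19, had log2 fold changes of -0.1 and -0.16, and Cldn14 was too low to test. Of 10 other family genes that were listed and found in the table (the list did not hold Cldn17), 5 were tested. In 0 of these did the groups stand apart, beside 23.2% of all tested genes. The most abundant by TPM, Cldn12, gave 97.7, 85.6 and 109 CPM in the Db libraries and 32.9, 68.1 and 92.8 CPM in the Db+Ato10 libraries.

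Of the 12 tight junction membrane proteins other than claudins, the groups stood apart in 1 higher and 1 lower gene, beside 12.0% and 11.3% of all tested genes. The higher was Lsr, the angulin of tricellular junctions, with 40.3, 52.1 and 45.8 CPM in the Db libraries and 69, 88.3 and 62 CPM in the Db+Ato10 libraries (log2 fold change 0.67, DESeq2 adjusted p = 0.0392, and 0.282 without Db replicate 1). DESeq2 called Lsr in 1 of the 6 fits with a library left out, that without Db+Ato10 replicate 3. The lower was occludin (Ocln), with a log2 fold change of -0.24. Of the 17 scaffold and polarity genes, the groups stood apart in 1 higher gene, Ybx3 (log2 fold change 0.49), and 1 lower gene, Cgnl1. Cgnl1, which encodes paracingulin, gave 578, 521 and 547 CPM in the Db libraries and 260, 292 and 373 CPM in the Db+Ato10 libraries. All treated libraries lay lower, with a log2 fold change of -0.83 (adjusted p = 0.239 with edgeR, 0.00268 with DESeq2 and 0.0804 with DESeq2 without Db replicate 1). The scaffold gene Tjp1, whose protein ZO-1 binds claudins directly, had a log2 fold change of 0.01.

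The main catenins were as level as Cdh1. Of the 12 tested catenins and adherens junction adaptors, beta-catenin (Ctnnb1), alpha-catenin (Ctnna1), p120-catenin (Ctnnd1) and plakoglobin (Jup) had log2 fold changes between -0.08 and 0.06. The groups stood apart in 4 of the 12, beside 23.2% of all tested genes, and edgeR and DESeq2 called 0. Vinculin (Vcl, 0.53) was the higher one, and Plekha7 (-0.59), Nectin3 (-0.61) and Epcam (-0.21) were the lower ones. Nectin2 (0.68) and Nectin4 (1.07) overlapped between the groups. Among 11 tested cadherins beyond Cdh1, Cdh2 and Cdh16 the groups stood apart in 0, and the most abundant by TPM, the brush border gene Cdhr5, had a log2 fold change of 0. Of 7 tested desmosome genes, Pkp4 was lower in every Db+Ato10 library (-0.62) and Pkp3 higher (0.57). Of 7 tested gap junction and pannexin genes, Panx1 gave 0.397, 1.04 and 0.808 CPM in the Db libraries and 11.4, 9.25 and 1.42 CPM in the Db+Ato10 libraries (log2 fold change 3.29, DESeq2 adjusted p = 0.00277, and 0.0681 without Db replicate 1).

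Genes known to act on claudins and cadherins were also read. Among repressors of E-cadherin, Snai1 gave 1.67, 2.6 and 1.21 CPM in the Db libraries and 14.5, 2.23 and 2.6 CPM in the Db+Ato10 libraries, high in Db+Ato10 replicate 1 alone. Zeb2 gave 26, 25.3 and 21.2 CPM in the Db libraries and 67.6, 38.8 and 24.4 CPM in the Db+Ato10 libraries, with a log2 fold change of 0.85 (edgeR adjusted p = 0.3). Twist1, Zeb1 and Snai2 had log2 fold changes of 0.74, 0.1 and -0.11, and all 5 of these repressor genes overlapped between the groups. The mesenchymal genes Vim, Fn1 and S100a4 of the same list were called by DESeq2, with log2 fold changes of 2.65, 3.07 and 2.85, while Cdh1 was level. Much of this came from Db+Ato10 replicate 1, since Vim gave 564, 123 and 49.3 CPM in the Db+Ato10 libraries and S100a4 gave 57.8, 10.1 and 3.7 CPM, and both overlapped with the Db libraries. The lowest log2 fold changes with a library left out were 1.15, 1.9 and 1.07, and none of the 3 was called by DESeq2 without Db replicate 1 or without Db replicate 3. Of 18 epithelial transcription factors the groups stood apart in 2 higher and 2 lower, near the 23.2% of all tested genes. Elf3, an epithelial ETS factor, gave 27.3, 25 and 24.5 CPM in the Db libraries and 101, 68.4 and 39.9 CPM in the Db+Ato10 libraries, the same order of treated libraries as Cldn3, Cldn4 and Cldn7. The treated libraries had this order on the first principal component over all tested genes too, so it is not particular to Elf3 and these claudins. The log2 fold change of Elf3 was 1.44 (adjusted p = 0.239 with edgeR, 0.00456 with DESeq2 and 0.0675 with DESeq2 without Db replicate 1). Tfap2b, a factor of the distal nephron, had -0.71, and Grhl1, a grainyhead factor, had 0.6 at levels between 0.889 and 2.24 CPM.

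Enzymes that cleave junction proteins or mark them for degradation were read as well. Of 11 tested, the groups stood apart in 3 higher and 4 lower, beside 12.0% and 11.3% of all tested genes, and edgeR called 0. Of these 7, St14 (0.26), Cul3 (-0.31) and Cbll1 (-0.28) were called by neither tool. Klhl3, the adaptor of a ubiquitin ligase whose known targets include WNK kinases and Cldn8, gave 23.3, 21.7 and 16.9 CPM in the Db libraries and 3.23, 4.32 and 9.85 CPM in the Db+Ato10 libraries. Klhl3 and Cldn8 were thus both lower in every treated library, and the log2 fold change of Klhl3 was -1.83 (adjusted p = 0.239 with edgeR, 0.00429 with DESeq2 and 0.104 with DESeq2 without Db replicate 1). Lnx1, a ubiquitin ligase known to act on claudins, had -1.16. The metalloproteinase Mmp7, known to shed E-cadherin, gave 0, 1.65 and 0 CPM in the Db libraries and 203, 69.3 and 6.77 CPM in the Db+Ato10 libraries. Mmp9 gave 245, 13.4 and 2.05 CPM in the Db+Ato10 libraries against at most 0.565 CPM in the Db libraries. Its log2 fold change of 7.7 was as low as 4.21 with a library left out, and DESeq2 called it in all 6 of those fits. Mmp14, with a log2 fold change of 2.93, was called by DESeq2 but overlapped between the groups, at 25.7 CPM in Db replicate 2 and 19.8 CPM in Db+Ato10 replicate 3, and was not called without Db replicate 1.

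The summed markers of injured tubule, macrophages and fibroblasts were highest in Db+Ato10 replicate 1. The 8 genes of injured proximal tubule, which include the keratin genes Krt8 and Krt18, summed to 153, 264 and 191 CPM in the Db libraries and to 6074, 1828 and 675 CPM in the Db+Ato10 libraries. By TPM Krt8 led them in the Db group and Lcn2 in the Db+Ato10 group. In 7 of the 8 the groups stood apart, all higher, beside 12.0% of all tested genes, which is also the share to read the next 2 lists against. Lcn2 made most of the sum in Db+Ato10 replicate 1, with 5088, 868 and 308 CPM in the Db+Ato10 libraries. The other 7 genes summed to 986, 960 and 367 CPM there, and 3 of the 8 were highest in Db+Ato10 replicate 2. Macrophage genes summed to 116, 204 and 157 CPM and to 4441, 1074 and 227 CPM, with 5 of 7 apart and Lyz2 the most abundant by TPM. Fibroblast and pericyte genes summed to 138, 197 and 140 CPM and to 1644, 678 and 256 CPM, with 4 of 8 apart. By TPM Acta2 was the most abundant of them in the Db group and Dcn in the Db+Ato10 group. edgeR called 0 genes of these 3 lists. DESeq2 called 8 of the 8, 6 of the 7 and 4 of the 8, all higher, beside 6.48% of all genes in either direction. With a library left out it called from 4 to 8, from 2 to 7 and from 2 to 7 of them, in fits that called from 1.46% to 19.8% of all genes. None of the genes of these 3 lists was at 0 in any library.

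Epithelia outside the nephron also carry Cldn1, Cldn4, Cldn7 and Cdh3, and their markers were low in the Db libraries. The 10 urothelial genes, of which 6 were tested, summed to 8.5, 7.71 and 8.32 CPM in the Db libraries and to 216, 151 and 41.2 CPM in the Db+Ato10 libraries. By TPM Upk1a was the most abundant in the Db group and Krt20 in the Db+Ato10 group. Krt5, Krt15 and Krt20 were the 3 whose groups stood apart, all higher. Of all tested genes 12.0% were higher and 11.3% lower without overlap, the shares to read every list of this paragraph against. Krt20 was also in the list of injured proximal tubule, and Krt5 and Trp63 in that of squamous epithelium, so the sums of these lists share genes. The 5 defining uroplakin genes were at most 6.13 CPM and overlapped between the groups. Upk3a gave 0.397, 0.0867 and 0.646 CPM in the Db libraries and 6.13, 2.03 and 0.236 CPM in the Db+Ato10 libraries, and Upk1b gave 0.715, 0.0867 and 0.646 CPM and 2.96, 1.76 and 0.709 CPM. Upk2 gave 0.556, 0.0867 and 0.0808 CPM and 1.25, 0.203 and 0.158 CPM, and Upk1a and Upk3b had log2 fold changes of -0.66 and 0.17. Krt15 was at 0 in Db replicate 2, and Krt13 was at 0 in each library except for 0.0659 CPM in Db+Ato10 replicate 1. The 10 genes of stratified squamous epithelium, 5 of them tested, summed to 3.18, 3.55 and 2.5 CPM and to 145, 91.2 and 38.4 CPM. In 4 of the 5 the groups stood apart, all higher, beside 12.0% of all tested genes. Sprr1a was the most abundant by TPM, and Krt5 by CPM in the Db+Ato10 group. The desmosomal cadherin gene Dsg3 that defines this epithelium was at 0 in all Db libraries and in Db+Ato10 replicate 2, and Krt6a, Krt13, Krt4 and Ivl were also at 0 in at least 1 library. The basal keratin gene Krt14 was at 0 in Db replicates 2 and 3 only, with 0.0795 CPM in Db replicate 1 and 31.2, 13.6 and 5.59 CPM in the Db+Ato10 libraries (log2 fold change 8.84, adjusted p = 0.239 with edgeR and 2.81e-08 with DESeq2). edgeR called 0 urothelial and squamous genes. DESeq2 called 3 of the 6 urothelial and 4 of the 5 squamous genes tested, all higher, beside 6.48% of all genes in either direction. With a library left out it called from 3 to 4 and from 4 to 5 of them. Those fits called from 1.46% to 19.8% of all genes, and the higher counts came from the fit with 19.8%. Thin limb genes had 1 of 6 higher and 1 of 6 lower without overlap, were led in TPM by Aqp1 and summed to 1497, 997 and 2032 CPM and to 965, 747 and 1320 CPM. B and plasma cell genes, 3 of 5 tested and led in TPM by Jchain, summed to 3.58, 21.2 and 5.98 CPM and to 333, 99.9 and 12.2 CPM, with Ms4a1 at 0 in some libraries and 1 of the 3, Mzb1, apart. The part of these cells in the levels of Cldn1, Cldn3, Cldn4 and Cldn7 was not tested.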

How the data were processed

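The authors sequenced whole-kidney RNA, 1 library per mouse (3 Db, 3 Db+Ato10). They deposited expected counts, meaning estimated reads before any normalization, for genes and transcripts. The authors also deposited TPM for both and FPKM for genes; their processing notes name HISAT, Bowtie2 2.2.5 and mm9, without roles. Expected counts as deposited were rounded, and edgeR tested genes that reached 10 counts in 3 or more libraries (version 4.0.16 in R 4.3.3, TMM, quasi-likelihood F test, group only). A standard error is |log2 fold change| over the root of F. The edgeR and DESeq2 fits were also run on simulated counts with known differences. Log2 CPM used a prior count of 2. Alternatives were DESeq2 1.42.0, limma 3.58.1, other scalings, filters and units, a replicate block and each library left out. Gene lists held 259 entries, and 253 matched the gene table. Genes named were the 10 genes, junction genes called by either tool or with groups apart and a fold change over 1.5 (otherwise the most abundant of a list), leading and defining markers, and the 3 most like genes; the other genes named from the lists were chosen after their values were seen. The 10 genes and the lists were chosen with earlier results of these data known. Figures were drawn with matplotlib 3.10.9.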

Additional observations from a re-analysis of the deposited data

How the results depend on the processing

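The count of genes called was 0 with edgeR (2314 at an unadjusted p-value under 0.05) and 0 with limma-voom, other scalings, other filters, no fold change threshold and log2 of FPKM + 1 or TPM + 1. DESeq2 called 884, and limma on log2(TPM + 0.1) called 1. With a library left out it ranged from 0 to 1236 among the same 13679 genes, and all but 1 of these fits called none, the exception being that without Db+Ato10 replicate 3. The 10 claudins and cadherins had 0 calls with edgeR, 4 with DESeq2 and from 0 to 4 with a library left out. The DESeq2 fits with a library left out, which were added once the data were known, called from 2 to 6 of the 10, beside from 1.46% to 19.8% of all genes they tested, and the 6 came from the fit with 19.8%. The number of the 10 whose groups stood apart was 5, and from 5 to 7 with a library left out, beside from 29.3% to 50.6% of all tested genes. Of their transcripts, 0 were called by edgeR and 4 by DESeq2. The cause of these differences between tools was not tested.

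Of 160 alternative values of the 10 log2 fold changes, 151 kept their direction and side of the threshold, 8 passed the threshold, and 1 changed direction, Cdh2 at 0.61 without Db replicate 1 (range -1.09 to 0.61 over the libraries left out). The log2 ratio of Cdh1 to Cdh2 ranged from -0.48 to 1.06 with a library left out, against 0.37. The other 4 ratios kept their direction. The cause of these reversals was not tested.

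Replicate numbers did not pair the libraries, with correlations of -0.151, 0.061 and 0.208 between libraries of the same number, and with the number as a replicate block 0 genes and 0 of the 10 were called. With 3 libraries per group an exact permutation p cannot fall below 0.1, and the values of Cdh2 rest on as few as 12 counts in a library.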
